A study of Homo sapiens with 24 samples.

Results

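The expression of 40 genes of mitosis and the G2/M transition was followed in HT29 cells, an established line of human colon adenocarcinoma. The genes were taken by name from a list, with every probe on the array that carries the name of one of them. All 40 of 40 were present, on 50 of the 50599 probes that are not controls, and each of these 50 probes was well above background on all 24 arrays. They were set against the 20688 genes that could be tested. HT29 cells, grown in DMEM with fetal calf serum, were left untreated (NT) or were treated for 6 h in 5 ways, with 4 arrays per group. C3/C2 is a mixture of 30 mM propionate and 15 mM acetate. SN is the supernatant of a culture of Propionibacterium freudenreichii diluted to 1/2, and C3/C2 holds both acids in the amounts of that diluted SN. TRAIL, a death ligand of the TNF family, was given at 100 ng/ml together with 2 µg/ml of the anti-Flag M2 antibody. TRAIL+C3/C2 and TRAIL+SN are the co-treatments. The comparisons ask how cells respond to the supernatant, to its acids and to TRAIL, alone and combined. The methods describe 2 independent experiments performed in duplicate, without saying which replicate numbers belong together. The p-values therefore measure the spread between these samples, which may in part be technical, and not that between independent experiments alone.

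Entry into mitosis is driven by CDK1 bound to cyclin B, which CDC25 phosphatases activate and WEE1-type kinases hold back. The aurora and polo-like kinases then build the spindle, the checkpoint proteins at the kinetochores delay anaphase until the chromosomes are attached, and the anaphase-promoting complex with CDC20 triggers the separation of the sisters. Most of these genes are transcribed in late S, G2 and M phase. Their promoters are bound by the MuvB complex with MYBL2 or FOXM1 at the cell cycle homology region (CHR), and by NF-Y at CCAAT boxes, and p21 (CDKN1A) is known to favour their repression through the pocket proteins. Propionate and acetate are short chain fatty acids, of which propionate is known as a weak inhibitor of histone deacetylases.

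The promoters of these genes carried both kinds of box more often than the average promoter. In the RefSeq table of promoters (build GRCh38.p14, 250 bases before to 50 bases after each annotated start), 33 of the 40 genes have an entry. The CHR was searched as TTTGAA or TTCGAA and the CCAAT box as CCAAT, on both strands. The letters of the CHR were found in 25 of the 33 genes (75.8%), against 19.5% of 27305 symbols in the table, and CCAAT in 27 (81.8%), against 39.7%. Both were found in 21 (63.6%), against 9.02%. The sequences below, 150 bases up to the base before the annotated start, belong to genes with large falls (HMMR, CCNB2, PLK1, CENPA and KIF20A) and to NEK2, which rose. They are written 5′ to 3′ along the gene, with the CHR and CCAAT letters of either strand in capitals. They lie at chr5:163460482-163460631 (forward strand), chr15:59104996-59105145 (forward strand), chr16:23678739-23678888 (forward strand), chr2:26785906-26786055 (forward strand), chr5:138178962-138179111 (forward strand) and chr1:211675622-211675771 (reverse strand).
HMMR: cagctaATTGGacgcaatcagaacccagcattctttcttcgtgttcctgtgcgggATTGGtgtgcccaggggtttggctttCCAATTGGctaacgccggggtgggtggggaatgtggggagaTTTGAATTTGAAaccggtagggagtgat
CCNB2: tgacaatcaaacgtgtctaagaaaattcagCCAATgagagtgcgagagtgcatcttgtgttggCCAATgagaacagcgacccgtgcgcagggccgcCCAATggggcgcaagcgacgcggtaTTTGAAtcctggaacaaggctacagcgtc
PLK1: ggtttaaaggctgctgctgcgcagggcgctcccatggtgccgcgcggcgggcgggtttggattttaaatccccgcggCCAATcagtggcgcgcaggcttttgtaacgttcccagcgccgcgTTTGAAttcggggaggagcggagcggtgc
CENPA: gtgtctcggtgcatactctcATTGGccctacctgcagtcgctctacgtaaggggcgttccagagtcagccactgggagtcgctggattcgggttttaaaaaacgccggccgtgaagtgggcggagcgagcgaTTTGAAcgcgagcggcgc
KIF20A: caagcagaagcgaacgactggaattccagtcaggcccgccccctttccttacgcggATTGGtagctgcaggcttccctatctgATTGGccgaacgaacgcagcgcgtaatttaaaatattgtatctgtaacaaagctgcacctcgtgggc
NEK2: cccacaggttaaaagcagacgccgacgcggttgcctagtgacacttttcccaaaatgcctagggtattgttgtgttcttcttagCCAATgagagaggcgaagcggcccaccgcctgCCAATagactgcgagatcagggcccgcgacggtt
In CCNB2, PLK1 and HMMR, TTTGAA begins 29, 29 and 28 bases before the start, with CCAAT boxes upstream of it, and HMMR has a further TTTGAA directly after the first. Neither KIF20A, which fell most with SN, nor NEK2 has TTTGAA or TTCGAA in its window, and both have 2 CCAAT boxes. Among the genes with an entry, the letters searched did not separate those that moved most. TTTGAA or TTCGAA is held by 7 of the 10 that fell at least 2-fold with SN and by 18 of the 23 others. Other forms of the CHR were not searched. A match of letters is a description of the window and shows no binding.

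All values below are log2 intensities less the 75th percentile of their array, and differences between groups are on the same log2 scale, where -1 is a 2-fold fall. A gene is said to fall or rise where limma's adjusted p is under 0.05, and to fall or rise at least 2-fold where the change also reaches that size. Across genes, the correlation of arrays within a group was 0.993 to 0.998. The 75th percentile of intensity was lower in the co-treatments, with a median of 519.8 for TRAIL+SN and 502.8 for TRAIL+C3/C2, than in NT, with 882.6. The 12 markers of colon epithelium were well above background on every array, and their summed level was 1020 to 1190 in NT, C3/C2 and SN and 1410 to 1560 in the groups with TRAIL. Of 15 markers of other cell types 14 were on the array, 6 of them well above background on all arrays and COL3A1 on none. Their summed level was 1.12 to 1.51 in NT and TRAIL and 2.13 to 3 in the 4 groups with C3/C2 or SN. COL1A1, a fibroblast collagen, was well above background on 16 arrays, with a mean level of -6.54 in NT, -1.42 with C3/C2 and -0.55 with SN, and its part in the results was not tested. NT and C3/C2 lay on slides 1 and 2, SN and TRAIL on slide 3 and the co-treatments on slide 4, so that apart from C3/C2 a treatment and a slide cannot be told apart in a comparison with NT.

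With either C3/C2 or SN the genes of mitosis fell together, more with SN than with C3/C2. With C3/C2, 9 of the 40 (22.5%) fell at least 2-fold, against 6.17% of all genes, and none rose 2-fold, against 13.4%. With SN 12 (30%) did, against 9.74%, and again none rose 2-fold, against 14.2%. Without a minimum fold, 26 fell and 1 rose with C3/C2 (65% and 2.5%), where 27.7% of all genes fell and 35.2% rose. With SN 37 fell and 2 rose (92.5% and 5%), where 34.2% of all genes fell and 35.1% rose. The median difference of the 40 genes from NT was -0.43 with C3/C2 and -0.71 with SN, while the median over all genes tested was 0.08 and -0.02. In bulk RNA, fewer cells in mitosis and less of these mRNAs per cell cannot be told apart. C3/C2 could be compared with NT within a slide: the median was -0.47 on slide 1, with 1 array per group, and -0.40 on slide 2, with 3, and 34 of the 40 genes lay below NT on each. SN could be compared within slide 3 with TRAIL only, and there 14 of the 40 genes (35%) were at least 2-fold lower, against 8% of all genes, with a median of -0.78. With 1 array left out this number was 11 to 16: TTK (-1.06), NUSAP1 (-1.01) and UBE2C (-1.01) fell short of 2-fold without TRAIL replicate 2 or SN replicate 3, NUSAP1 and UBE2C also without TRAIL replicate 1 or SN replicate 4, whereas NUF2 (-0.99) passed it without SN replicate 1 or 2 or TRAIL replicate 3 or 4, and FOXM1 (-0.97) without TRAIL replicate 4.

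**Figure D1:**
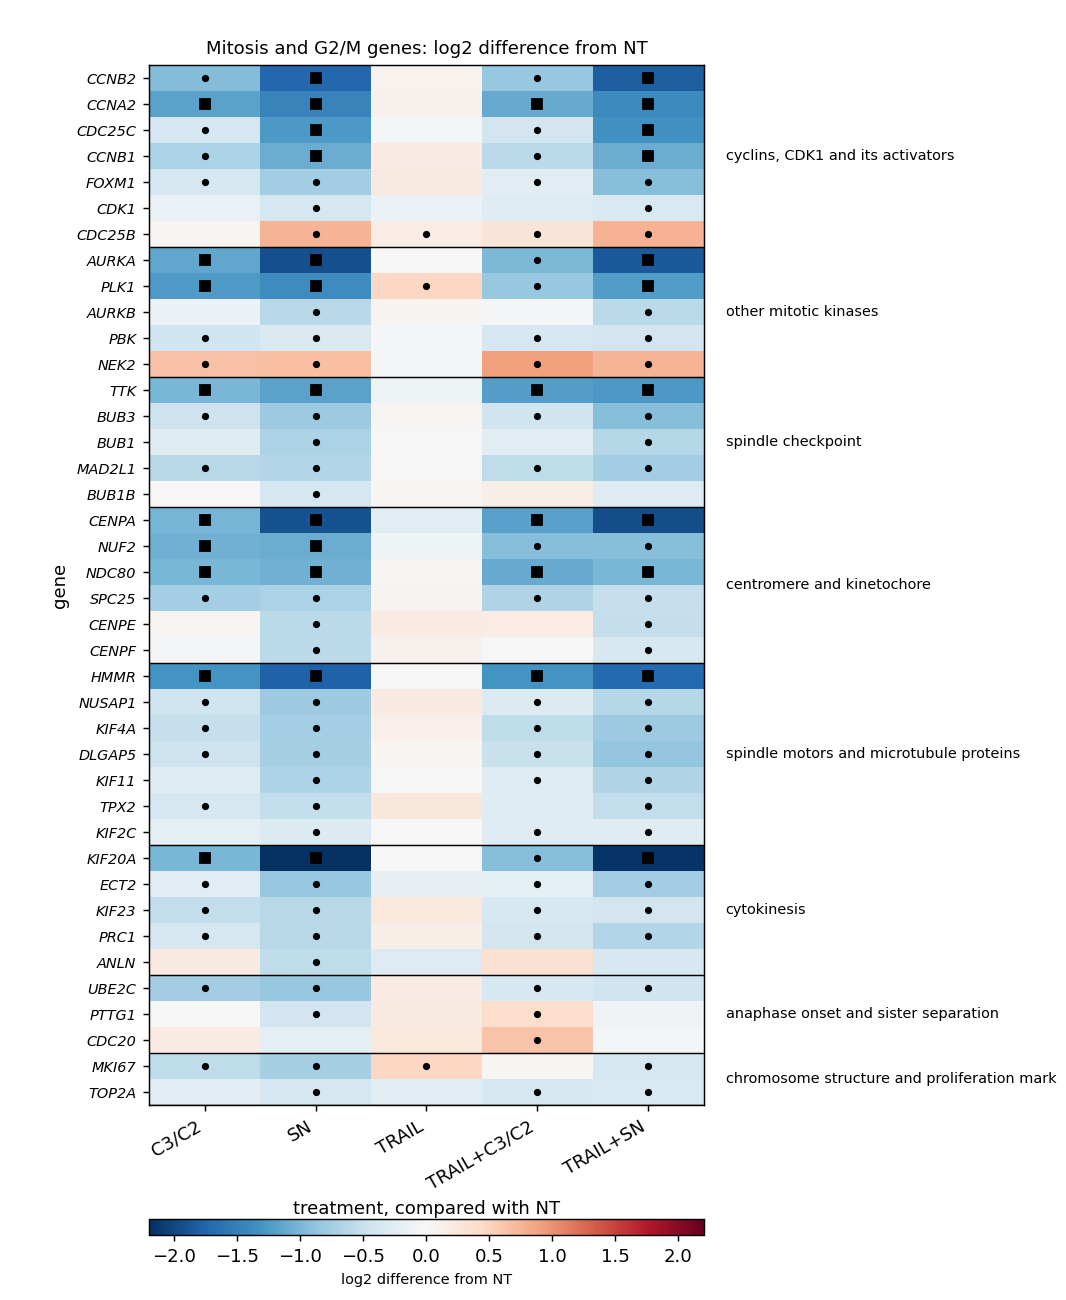
Log2 difference from NT of the 40 genes (vertical axis, grouped by role) in the 5 treatments (horizontal axis), in colour, with blue for lower and red for higher than NT. Dots mark an adjusted p under 0.05 and squares a change that is also at least 2-fold, of which there were 9, 12, 0, 5 and 11 from left to right, all falls.

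The 3 cyclins all fell with both C3/C2 and SN. CCNA2 encodes cyclin A2, which acts in S phase and G2. Its level was 2.30, 2.27, 2.00 and 1.90 in NT, 1.13, 1.01, 0.89 and 0.77 with C3/C2, and 0.85, 0.79, 0.58 and 0.41 with SN. The treated arrays all lay below all NT arrays, while those of C3/C2 and SN overlapped. The difference from NT was -1.17 with C3/C2 (SE 0.11, adjusted p = 4.85e-09) and -1.46 with SN (SE 0.11, adjusted p = 1.13e-10). CCNB1 encodes cyclin B1, the partner of CDK1 at mitotic entry. It stood at 5.00, 4.95, 4.54 and 4.45 in NT, at 4.19, 4.06, 3.98 and 3.94 with C3/C2 and at 3.83, 3.78, 3.54 and 3.46 with SN, in 3 ranges that did not overlap. It fell by 0.69 with C3/C2 (SE 0.12, adjusted p = 3.88e-05) and by 1.09 with SN (SE 0.12, adjusted p = 7.81e-08), and without NT replicate 1 it fell by 0.997 with SN, just under 2-fold. CCNB2, the other B-type cyclin, fell by 0.95 and 1.73.

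CDK1 itself, the kinase, changed less than its cyclins. Its arrays held 3.13, 3.08, 2.87 and 2.65 in NT, 2.90, 2.88, 2.72 and 2.66 with C3/C2, and 2.76, 2.74, 2.31 and 2.34 with SN, and each treatment overlapped NT. The difference was -0.14 with C3/C2 (adjusted p = 0.363) and -0.40 with SN (adjusted p = 0.0102). The 2 CDC25 phosphatases that remove the inhibitory phosphates of CDK1 parted. CDC25C fell by 0.37 with C3/C2 but by 1.25 with SN. CDC25B was 3.12, 3.09, 2.98 and 3.06 in NT, 3.13, 3.02, 3.11 and 3.13 with C3/C2 and 3.97, 3.83, 3.70 and 3.73 with SN. The SN arrays stood above all others of these 3 groups, and CDC25B rose by 0.74 (SE 0.06, adjusted p = 1.12e-09), one of only 2 of the 40 genes to rise with SN. With C3/C2 its difference was 0.04 (adjusted p = 0.649). FOXM1, the transcription factor that drives many G2/M genes, fell by 0.38 with C3/C2 and 0.77 with SN.

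Among the other mitotic kinases AURKA and PLK1 fell and NEK2 rose. AURKA encodes aurora kinase A, which acts at the spindle poles. Its level was 4.03, 3.95, 3.54 and 3.54 in NT, 2.69, 2.71, 2.56 and 2.51 with C3/C2, and 1.95, 1.95, 1.79 and 1.65 with SN. The 3 ranges were apart, and AURKA fell by 1.15 (SE 0.10, adjusted p = 4.01e-09) and by 1.93 (SE 0.10, adjusted p = 7.54e-13), the latter 3.81-fold. PLK1 encodes polo-like kinase 1, needed from mitotic entry to cytokinesis. It stood at 2.50, 2.43, 1.94 and 2.13 in NT, at 1.22, 1.08, 0.92 and 0.79 with C3/C2 and at 1.11, 0.93, 0.79 and 0.60 with SN. Both treatments lay below NT and overlapped each other, with falls of 1.25 (SE 0.13, adjusted p = 2.48e-08) and 1.39 (SE 0.13, adjusted p = 3.97e-09).

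NEK2, a kinase that separates the centrosomes, went the other way. It was 0.89, 0.77, 0.30 and 0.17 in NT, 1.45, 1.27, 1.09 and 0.94 with C3/C2, and 1.46, 1.40, 0.98 and 0.92 with SN. No treated array fell into the range of NT, and the rise was 0.65 with C3/C2 (SE 0.16, adjusted p = 0.00117) and 0.66 with SN (SE 0.16, adjusted p = 0.000972). Its other probe gave 0.89 and 0.56. AURKB, the kinase of the chromosomal passenger complex, fell by 0.61 with SN, and its difference with C3/C2 was -0.12. PBK, a kinase active in mitosis, fell by 0.43 with C3/C2 and 0.32 with SN.

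All 5 genes of the spindle checkpoint fell with SN, and 3 with C3/C2. TTK encodes MPS1, the kinase at the head of the checkpoint. Its level was 1.06, 1.18, 0.86 and 0.64 in NT, -0.02, 0.17, -0.27 and -0.15 with C3/C2, and -0.19, -0.08, -0.43 and -0.25 with SN. Both treatments lay well below NT, and TTK fell by 1.00 with C3/C2 (SE 0.13, adjusted p = 5.92e-07) and by 1.17 with SN (SE 0.13, adjusted p = 5.12e-08). MAD2L1, which encodes the inhibitor MAD2, fell by 0.61 and 0.65. BUB1 and BUB1B, the kinase and the pseudokinase of the checkpoint, fell with SN, by 0.69 and 0.38, and gave -0.26 and 0.01 with C3/C2. BUB3, their common partner, fell by 0.45 with C3/C2 and 0.79 with SN on the brighter of its 2 probes.

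At the centromere the change was uneven. CENPA encodes the histone H3 variant that marks the centromere. Its arrays held 1.29, 1.39, 1.01 and 0.86 in NT, 0.14, 0.24, 0.06 and -0.004 with C3/C2, and -0.63, -0.56, -0.92 and -0.97 with SN. The 3 groups were apart, with falls of 1.03 (SE 0.13, adjusted p = 5.18e-07) and 1.91 (SE 0.13, adjusted p = 3.13e-11). NDC80, NUF2 and SPC25 encode subunits of the NDC80 complex, which holds the microtubule ends. They fell by 1.01, 1.06 and 0.75 with C3/C2 and by 1.06, 1.09 and 0.69 with SN. The fall of NDC80 with SN was under 2-fold without NT replicate 1 (-0.97), NT replicate 2 (-0.97), SN replicate 3 (-0.99) or SN replicate 4 (-0.97). CENPE, a kinetochore motor, and CENPF, a large protein of the outer kinetochore, fell with SN, by 0.59 and 0.58, and gave 0.04 and -0.04 with C3/C2.

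The 7 genes of spindle motors and microtubule proteins all fell with SN. HMMR encodes a hyaluronan receptor that also binds the spindle. Its level was 4.23, 4.22, 3.56 and 3.54 in NT, 2.81, 2.85, 2.29 and 2.33 with C3/C2 and 2.43, 2.45, 1.86 and 1.69 with SN. The treated arrays lay below NT in each case, and the fall was 1.32 with C3/C2 (SE 0.20, adjusted p = 8.86e-06), the largest of the 40 genes there, and 1.78 with SN (SE 0.20, adjusted p = 1.16e-07). KIF4A, a chromosome-bound motor, NUSAP1 and DLGAP5, which stabilise spindle microtubules, and TPX2, the activator of aurora A at the spindle, fell by 0.39 to 0.51 with C3/C2 and by 0.55 to 0.80 with SN. KIF11 and KIF2C, the motor that pushes the poles apart and a depolymerase, fell with SN by 0.68 and 0.30, and gave -0.26 and -0.21 with C3/C2.

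KIF20A, a kinesin of the central spindle needed for cytokinesis, showed the largest fall of the 40 genes with SN. Its level was 1.93, 1.89, 1.42 and 1.33 in NT, 0.89, 0.78, 0.46 and 0.38 with C3/C2 and -0.37, -0.33, -0.67 and -0.77 with SN. The groups were widely apart, and KIF20A fell by 1.01 with C3/C2 (SE 0.15, adjusted p = 5.2e-06) and by 2.18 with SN (SE 0.15, adjusted p = 4.47e-11), which is 2.02-fold and 4.52-fold. ECT2, the exchange factor that activates RhoA at the cleavage furrow, was 1.66, 1.76, 1.74 and 1.33 in NT, 1.46, 1.49, 1.32 and 1.30 with C3/C2 and 0.69, 0.86, 0.74 and 0.86 with SN. The SN arrays lay below every NT array and those of C3/C2 overlapped them, with a fall of 0.83 with SN (SE 0.10, adjusted p = 1.19e-07) and of 0.23 with C3/C2 (adjusted p = 0.0425). KIF23 and PRC1, which bundle the microtubules of the midzone, fell by 0.54 and 0.37 with C3/C2 and by 0.62 and 0.60 with SN. ANLN, the scaffold of the contractile ring, fell by 0.56 with SN and gave 0.20 with C3/C2.

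The genes of anaphase onset had the median closest to 0 of all roles, 0.01 with C3/C2 and -0.41 with SN. UBE2C, the ubiquitin-conjugating enzyme of the anaphase-promoting complex, fell by 0.77 with C3/C2 and 0.84 with SN. PTTG1, which encodes securin, fell by 0.41 with SN, and CDC20 did not pass the test in either (0.19 with C3/C2 and -0.20 with SN). TOP2A, which untangles sister chromatids, fell by 0.37 with SN. MKI67 encodes Ki-67, the common mark of proliferation. It was 3.25, 3.20, 2.75 and 2.86 in NT, 2.77, 2.47, 2.31 and 2.29 with C3/C2, and 2.35, 2.41, 2.32 and 2.09 with SN. C3/C2 overlapped NT at 1 array and SN did not overlap it, and MKI67 fell by 0.56 (SE 0.11, adjusted p = 0.000147) and 0.72 (SE 0.11, adjusted p = 5.28e-06).

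**Figure D2:**
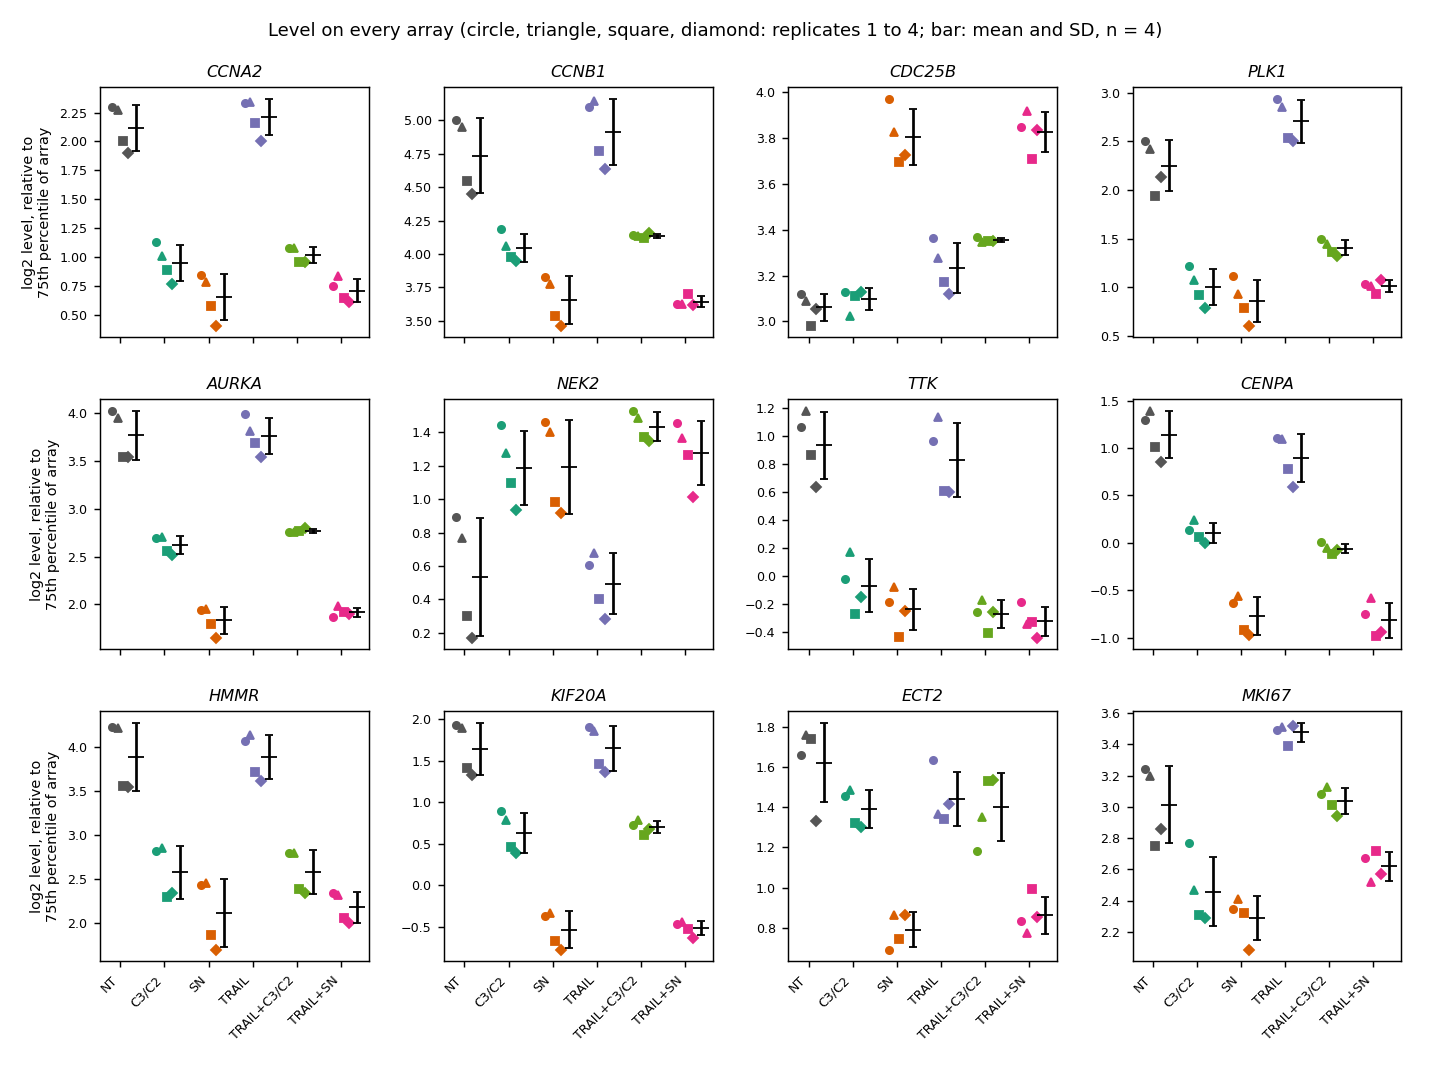
Level of 12 of the genes on every array (vertical axis, log2 intensity less the array's 75th percentile) in the 6 groups (horizontal axis), with replicates 1 to 4 as circle, triangle, square and diamond and the mean ± SD of 4 arrays as a bar. For CCNA2, CCNB1, PLK1, AURKA, TTK, CENPA, HMMR and KIF20A the TRAIL arrays overlap the range of NT or lie above it, and the arrays of the other 4 treatments lie below both.

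Several of the 2-fold falls with C3/C2 stood at the edge of that size. TTK (-1.003), NDC80 (-1.01), KIF20A (-1.01), CENPA (-1.03) and NUF2 (-1.06) lay just inside it and CCNB2 (-0.95) just outside. The number of falls of at least 2-fold was 9 with all arrays, 4 without NT replicate 1, 5 without NT replicate 2, C3/C2 replicate 3 or C3/C2 replicate 4, and 10 without NT replicate 4. The falls lost in these fits were those of TTK, NDC80, KIF20A, CENPA and NUF2, which then lay between -0.99 and -0.92, and the one gained was that of CCNB2 (-1.01).

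TRAIL alone left the genes near NT. No gene of the 40 changed 2-fold in limma's fit, where 2.18% of all genes fell and 0.749% rose by that size. Without a minimum fold none fell and 3 rose (7.5%), where 13.1% of all genes fell and 20.4% rose, and at an unadjusted p under 0.05 the counts were 0 and 5. The median difference was 0.05. PLK1 was 2.94, 2.85, 2.53 and 2.50 with TRAIL, with the lowest array at the level of the highest NT array, and rose by 0.46 (SE 0.13, adjusted p = 0.00899). Its other probe gave 0.308 (adjusted p = 0.113). MKI67 was 3.49, 3.51, 3.39 and 3.52 and rose by 0.46 (SE 0.11, adjusted p = 0.00257), while its 2 other probes gave -0.11 (adjusted p = 0.56) and -0.01 (adjusted p = 0.974). CDC25B rose by 0.17 (adjusted p = 0.0419), with 3.36, 3.28, 3.17 and 3.12 overlapping NT. No gene of the 40 fell, and the lowest adjusted p on that side was that of ECT2, with 1.64, 1.37, 1.34 and 1.41 (-0.18, adjusted p = 0.156). The dimmer probe of CENPF, which does not stand for the gene, did fall in limma's fit of single probes (-0.306, adjusted p = 0.0356). The small rises depend on the scaling: relative to spike-in probes no gene rose and 2 fell, 38 of the 40 lay below NT, and CDC25B was at -0.10. Relative to the array median, 8 genes rose. The median of the 40 genes was -0.224 relative to spike-in probes and 0.149 relative to the array median. Over all genes it was -0.239 and 0.134, so that the 40 genes moved with the rest.

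In the co-treatments the genes of mitosis again fell as a group. With TRAIL+C3/C2, 5 genes (12.5%) fell at least 2-fold, against 7.93% of all genes, and none rose 2-fold, against 16.2%. With TRAIL+SN 11 (27.5%) did, against 10.1%, and again none rose 2-fold, against 16%. Without a minimum fold 27 fell and 4 rose with TRAIL+C3/C2 (67.5% and 10%), beside 29.5% and 39.8% of all genes, and 34 fell and 2 rose with TRAIL+SN (85% and 5%), beside 32.7% and 37.4%. The medians were -0.36 and -0.64, beside -0.43 with C3/C2 and -0.71 with SN, and the co-treatments were not tested against C3/C2 or SN alone. The sizes depend on the scaling. Relative to spike-in probes the medians were -1.078 and -1.162, beside -0.613 for C3/C2 alone, and over all genes they were -0.614 and -0.49. The 2-fold falls then numbered 23 and 26, where 28.5% and 23.8% of all genes fell by that size, and no gene of the 40 rose in either. The 5 genes were HMMR (-1.31), TTK (-1.21), CENPA (-1.20), NDC80 (-1.11) and CCNA2 (-1.10). AURKA stood at the edge with -0.996, and was past it without NT replicate 3 or 4 (-1.07 each) or without TRAIL+C3/C2 replicate 4 (-1.01). KIF20A (-0.94) passed it without NT replicate 3 (-1.02) or NT replicate 4 (-1.05), and NUF2 (-0.94) without NT replicate 4 (-1.05). With TRAIL+SN, NUF2 (-0.94) passed it without NT replicate 4 (-1.04), and NDC80 (-1.01) fell short of it without NT replicate 1 or 2 (-0.92 each) and without TRAIL+SN replicate 3 (-0.96) or 4 (-0.92).

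The largest falls of the single treatments recurred on the arrays. KIF20A was 0.73, 0.79, 0.61 and 0.67 with TRAIL+C3/C2 and -0.46, -0.44, -0.52 and -0.64 with TRAIL+SN, and fell by 2.16 in the latter (SE 0.15, adjusted p = 4.54e-11). The TRAIL+SN arrays were again the lower. AURKA was 2.76, 2.76, 2.77 and 2.80 with TRAIL+C3/C2 and 1.87, 1.98, 1.92 and 1.90 with TRAIL+SN, a fall of 1.85 (SE 0.10, adjusted p = 1.36e-12). CENPA was 0.01, -0.06, -0.11 and -0.08 with TRAIL+C3/C2 and -0.75, -0.58, -0.99 and -0.94 with TRAIL+SN, a fall of 1.95 (SE 0.13, adjusted p = 1.91e-11). HMMR was 2.80, 2.79, 2.38 and 2.34 with TRAIL+C3/C2 and TTK -0.25, -0.17, -0.41 and -0.26, both below all NT arrays. For KIF20A, AURKA and CENPA the 2 co-treatments were apart from each other and both lay below TRAIL and NT. NEK2 was again high, at 1.53, 1.49, 1.37 and 1.35 with TRAIL+C3/C2 and at 1.46, 1.36, 1.26 and 1.01 with TRAIL+SN, with rises of 0.90 (SE 0.16, adjusted p = 3.6e-05) and 0.74 (SE 0.16, adjusted p = 0.000296). Without NT replicate 1 the rise with TRAIL+C3/C2 was 1.02. Under the alternatives of processing NEK2 ranged from 0.186 to 0.903 with TRAIL+C3/C2 and from 0.214 to 0.747 with TRAIL+SN. CCNB1 was 4.14, 4.13, 4.12 and 4.16 with TRAIL+C3/C2 and 3.63, 3.63, 3.70 and 3.62 with TRAIL+SN, below all NT arrays, and CDK1 was 2.79, 2.75, 2.54 and 2.54 and 2.74, 2.72, 2.49 and 2.44, overlapping NT in both.

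Relative to the 75th percentile, other genes stood higher with TRAIL+C3/C2 than with C3/C2 alone, a difference for which no contrast was fitted. MKI67 was 3.08, 3.13, 3.01 and 2.94 with TRAIL+C3/C2, above every array of C3/C2 and within the range of NT, and differed from NT by 0.03, where it had fallen by 0.56 with C3/C2. With TRAIL+SN it was 2.67, 2.52, 2.72 and 2.57. These are values of the brightest probe. The 2 other probes of MKI67 gave -0.122 and -0.925 with TRAIL+C3/C2, beside -0.341 and -0.878 with C3/C2, so that 1 of them was no higher. PLK1 was 1.499, 1.45, 1.36 and 1.32 with TRAIL+C3/C2, also above every array of C3/C2, with a fall of 0.84 beside 1.25. It was 1.04, 1.01, 0.93 and 1.08 with TRAIL+SN, within the range of SN. UBE2C fell by 0.35 with TRAIL+C3/C2 beside 0.77, and by 0.44 with TRAIL+SN beside 0.84. The other genes that rose with TRAIL+C3/C2 were CDC20 (0.63), PTTG1 (0.39) and CDC25B (0.29). The direction of these differences can change with the scaling. Relative to spike-in probes the median of the genes of mitosis was lower with TRAIL+C3/C2 (-1.078) than with C3/C2 (-0.613). PLK1 was then at -1.555 with TRAIL+C3/C2, while under all alternatives of processing it was -1.55 to -1.18 with C3/C2. For MKI67 the ranges were -0.687 to 0.027 for TRAIL+C3/C2 and -0.855 to -0.553 for C3/C2. They span different alternatives, so their overlap does not show a change of direction within 1 scaling.

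No gene of the 40 departed 2-fold from the sum of the single treatments. For TRAIL and C3/C2 together the departure had a median of 0.01, and none of the 40 passed limma's test, adjusted or not, where 0.657% of all genes passed with 2-fold and 2.88% without. For TRAIL and SN the median was -0.002, and 1 gene passed without a minimum fold, where 3.1% of all genes passed with 2-fold and 23.2% without. At an unadjusted p under 0.05 there were 2 genes. The gene that passed was FOXM1, which was lower with TRAIL+SN than the sum by 0.36 on the log2 scale (95% interval -0.58 to -0.13, adjusted p = 0.0213). These departures depend on the scaling. Relative to the array median their medians were -0.136 with C3/C2 and -0.168 with SN, and relative to spike-in probes -0.25 and -0.324, with 38 and 39 of the 40 genes below 0, while over all genes the spike-in medians were -0.26 and -0.33. With SN the genes that passed numbered 2 and 3 under these scalings and 0 after quantile normalization. For KIF20A the departure with SN was 0.01 (SE 0.21, adjusted p = 0.972) and for HMMR 0.07 (SE 0.29, adjusted p = 0.896), so that the interval of a single gene still holds changes of some size.

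Set directly against its acids, SN left the genes lower. SN and C3/C2 lay on different slides, whereas TRAIL+SN and TRAIL+C3/C2 lay on the same slide, and the 2 comparisons share no array. Without a minimum fold 20 genes were lower and 1 higher with SN than with C3/C2 (50% and 2.5%), where 25.7% of all genes were lower. With TRAIL in both, 21 were lower and 1 higher (52.5% and 2.5%), where 21.7% of all genes were lower. Of these, 19 genes were lower in both comparisons, as were 2565 of all 20688 genes tested. By at least 2-fold only KIF20A was lower in either, where 4.41% and 2.56% of all genes were lower by that size. Of the fits with 1 array left out, CDC25C passed 2-fold without TRAIL+C3/C2 replicate 3 (-1.004) and CCNB2 without TRAIL+SN replicate 3 (-1.02). The median difference was -0.32 without TRAIL and -0.37 with it, and over all genes -0.05 and -0.06. The direction was below 0 in both comparisons for 32 of the 40 genes (80%) and for 43% of all genes. These counts move with the scaling: 10 and 14 genes were lower relative to the array median, 5 and 8 relative to spike-in probes, and 20 and 21 after quantile normalization. The median of the 40 genes minus that of all genes, which a single constant per array cannot move, was -0.27 and -0.31, and after quantile normalization it was -0.33 in both.

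KIF20A differed most between SN and its acids, by -1.16 without TRAIL (SE 0.15, adjusted p = 2.75e-06) and by -1.22 with TRAIL (SE 0.15, adjusted p = 2.49e-06). Relative to the array median these were -0.99 and -1.06, and relative to spike-in probes -0.92 and -1.03. CDC25C (-0.89 and -0.93), CENPA (-0.88 and -0.75), AURKA (-0.78 and -0.85), CCNB2 (-0.78 and -0.97) and ANLN (-0.77 and -0.68) followed. Genes of every role but the last, TOP2A and MKI67, were among the 20, with 5 of the 7 cyclins, CDK1 and activators and 3 of the 5 of cytokinesis. CDC25B alone was higher, by 0.71 (SE 0.06, adjusted p = 2.16e-08) and 0.47 (SE 0.06, adjusted p = 5.94e-06), and remained so under the 3 other scalings, from 0.66 to 0.96 without TRAIL and from 0.50 to 0.66 with it.

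The other 19 of the 40 genes gave no difference between SN and C3/C2 that passed the test. Among them were subunits of the NDC80 complex, with -0.03 for NUF2 (95% interval -0.30 to 0.24), 0.05 for SPC25 (-0.16 to 0.27) and -0.05 for NDC80 (-0.47 to 0.37), while the other centromere genes CENPA, CENPE and CENPF were lower with SN. MAD2L1 (-0.04, -0.28 to 0.20) and TTK (-0.17, -0.44 to 0.10) did not pass, whereas BUB1, BUB1B and BUB3 of the same checkpoint were lower. PLK1 (-0.14, -0.41 to 0.13), KIF23 (-0.08, -0.36 to 0.20) and UBE2C (-0.07, -0.31 to 0.18) did not pass either. NEK2 differed by 0.00 (-0.33 to 0.34), and its other probe rose by 0.89 with C3/C2 and 0.56 with SN. These intervals leave room for moderate differences and do not show that the treatments act alike on these genes.

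**Figure D3:**
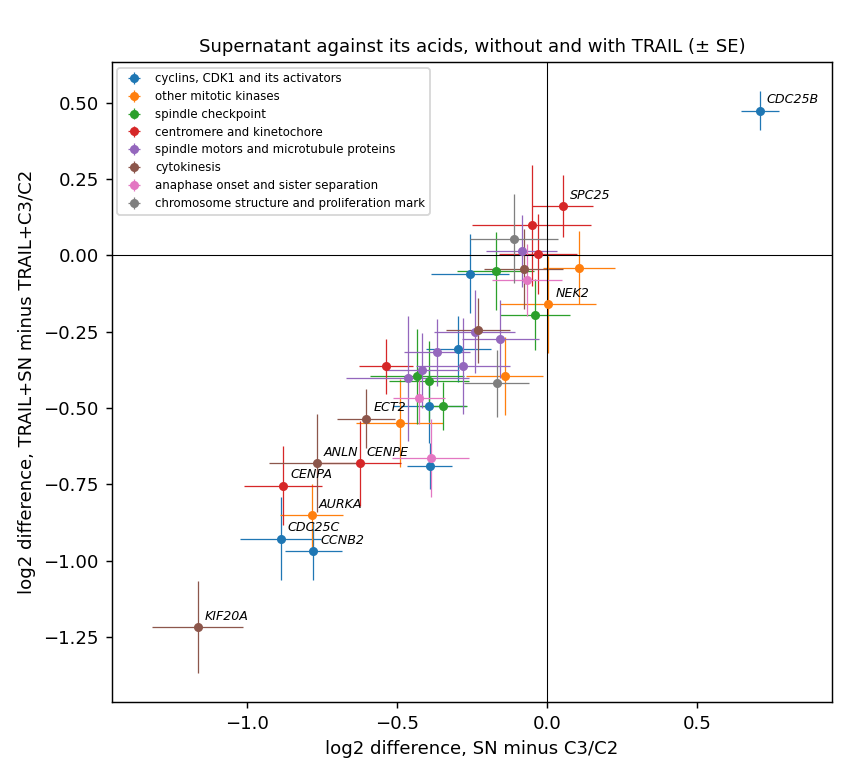
Log2 difference of SN minus C3/C2 (horizontal axis) against TRAIL+SN minus TRAIL+C3/C2 (vertical axis) for the 40 genes, with bars for the SE and colours for the role. KIF20A lies lowest on both axes (-1.16 and -1.22), CDC25B alone lies clearly above 0 on both (0.71 and 0.47), and 32 genes lie below 0 on both.

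Genes with more than 1 probe mostly moved alike on all of them, with some exceptions that bear on the calls. There were 9 such genes. The brightest probe stands for the gene in all counts above. For BUB3, that probe (hg19 chr10:124917262-124917321) fell by 0.45 with C3/C2 and 0.79 with SN, while the probe farther along the gene (chr10:124924177-124924236) fell by 1.53 and 1.04. On the second probe BUB3 would thus be a 2-fold fall in both, and larger with C3/C2. The second probe of CCNB1 (chr5:68473872-68473931) fell by 1.29 with C3/C2 and 1.28 with SN, where the brighter one (chr5:68471363-68473123, which spans a gap in the genome) fell by 0.69 and 1.09, so that the larger fall with SN was seen on the brighter probe only. For MKI67 the 3 probes fell with SN by 0.72, 0.93 and 1.49, and for KIF23 the 2 fell by 0.62 and 1.06. The second probe of CDK1, at a much lower level than the first, gave -0.05 with SN. Both probes of PLK1 fell at least 2-fold with C3/C2 (-1.25 and -1.32) and with SN (-1.39 and -1.57).

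The genes also differed between replicate numbers, in the same way in every group. The median of the 40 genes on an array, relative to the mean of NT, was 0.20, 0.19, -0.15 and -0.22 in NT and -0.58, -0.55, -0.83 and -0.88 in SN, in the order of the numbers. In each of the 6 groups the values of replicates 1 and 2 were above those of replicates 3 and 4. The mean of replicates 1 and 2 exceeded that of 3 and 4 for 40 of the 40 genes in NT and TRAIL, 39 in SN, 38 in C3/C2, 37 in TRAIL+C3/C2 and 33 in TRAIL+SN. The median gap was 0.37 in NT, 0.26 in C3/C2, 0.32 in SN, 0.36 in TRAIL, 0.12 in TRAIL+C3/C2 and 0.16 in TRAIL+SN, while over all genes it lay between -0.01 and 0.03. This split of the numbers was made after the values were seen, and what the pairs of numbers stand for is not given in the sources used here. Within the pairs the median difference from NT was below 0 for both C3/C2 and SN. With SN it was -0.75 for replicates 1 and 2 and -0.72 for 3 and 4, and with C3/C2 it was -0.47 and -0.36. With TRAIL+C3/C2 it was larger for the first pair, -0.49 beside -0.24, and with TRAIL+SN it was -0.73 and -0.60.

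**Figure D4:**
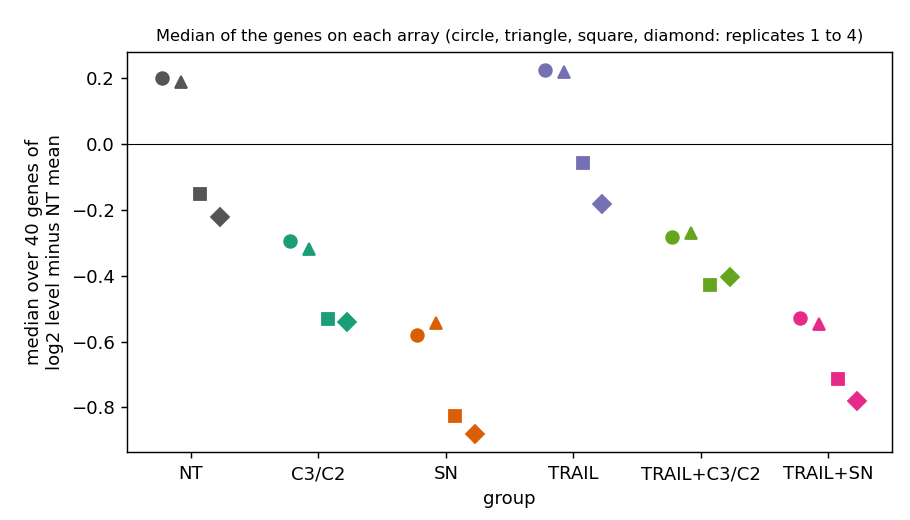
Median over the 40 genes of the log2 level minus the mean of NT (vertical axis) on each of the 24 arrays, by group (horizontal axis), with replicates 1 to 4 as circle, triangle, square and diamond. NT spans -0.22 to 0.20 and SN -0.88 to -0.55, and in each group replicates 1 and 2 lie above replicates 3 and 4.

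Other genes of the same machinery, listed by name, moved in both directions. Of 83 other mitotic genes tested, 4 fell at least 2-fold with C3/C2 (4.82%) and none rose, and with SN 16 fell (19.3%) and 3 rose (3.61%), with medians of -0.29 and -0.53. The share that fell is below that of all genes with C3/C2 (6.17%) and above it with SN (9.74%). Among those that fell were LMNB1, a lamin of the nuclear envelope (-1.82 with C3/C2 and -2.06 with SN), and DEPDC1 (-1.55 and -2.04). CDCA3, a mitotic entry factor, fell by 0.74 and 1.55. CENPK, a subunit of the inner kinetochore, fell by 0.73 and 1.36 and, unlike any of the 40, also fell at least 2-fold with TRAIL (-1.09, SE 0.09, adjusted p = 3.18e-08). Of 16 subunits and inhibitors of the anaphase-promoting complex, none fell 2-fold with C3/C2 or SN and 1 rose with each (6.25%), where 13.4% and 14.2% of all genes rose. It was FBXO43, which encodes the inhibitor EMI2 (1.84 and 1.13). Of the subunits, ANAPC7 and ANAPC13 fell by 0.69 and 0.91 with C3/C2 and by 0.91 and 0.98 with SN, and ANAPC2 rose by 0.89 and 0.90.

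Among these lists, that of the brakes of CDK1 held the largest rises with C3/C2 and SN. Of 14 such genes tested, a rise of at least 2-fold was seen for 3 with C3/C2 (21.4%, beside 13.4% of all genes) and for 4 with SN (28.6%, beside 14.2%). It was seen for 1 after TRAIL alone (7.14%, beside 0.749%), for 5 with TRAIL+SN (35.7%, beside 16%) and for 4 with TRAIL+C3/C2 (28.6%, beside 16.2%). None fell 2-fold. CDKN1A, which encodes the CDK inhibitor p21, rose by 2.68 with C3/C2 (SE 0.12, adjusted p = 4.64e-14), by 4.27 with SN (SE 0.12, adjusted p = 2.27e-17) and by 1.31 with TRAIL (SE 0.12, adjusted p = 7.53e-08). In the co-treatments it rose by 4.64 (TRAIL+SN) and 3.96 (TRAIL+C3/C2). GADD45B and GADD45A encode stress proteins that can bind CDK1. GADD45B rose by 4.06 with C3/C2 and 4.16 with SN, and GADD45A by 0.90 and 1.89. CDC14A, a phosphatase that opposes CDK1, rose by 1.26 and 1.00. The other members of this list changed less, and its median was 0.10 with C3/C2 and -0.10 with SN.

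The genes of MuvB, NF-Y, E2F and related regulators moved in both directions. Of 21 genes of MuvB, MYBL2, E2F, NF-Y and the pocket proteins, 4 were at least 2-fold lower and 2 higher with C3/C2 (19% and 9.52%, beside 6.17% and 13.4% of all genes), and 3 were lower and 1 higher with SN (14.3% and 4.76%, beside 9.74% and 14.2%). LIN37, a MuvB subunit, rose by 1.76 with C3/C2 (SE 0.06, adjusted p = 1.82e-15) and 1.53 with SN (SE 0.06, adjusted p = 1.2e-14). NFYC, a subunit of the CCAAT-binding NF-Y, fell by 1.71 (SE 0.05, adjusted p = 2e-16) and 1.51 (SE 0.05, adjusted p = 9.96e-16). RBL1, which encodes the pocket protein p107, fell by 1.25 with C3/C2 and 0.54 with SN, and E2F2 rose by 1.23 and 0.34. Among 31 genes of G1/S and replication, 2 fell and 1 rose 2-fold with C3/C2 and likewise with SN, and the share that fell (6.45%) is near that of all genes with C3/C2 and below it with SN. GINS3, a subunit of the replicative helicase, fell by 2.11 and 2.89. POLE2, of DNA polymerase epsilon, fell by 0.54 and 1.36, MCM6 fell by 0.94 with both, and CCNE1, which encodes cyclin E1, rose by 1.16 and 1.25. The medians of this list were -0.21 and -0.25, closer to 0 than those of the 40 genes.

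**Figure D5:**
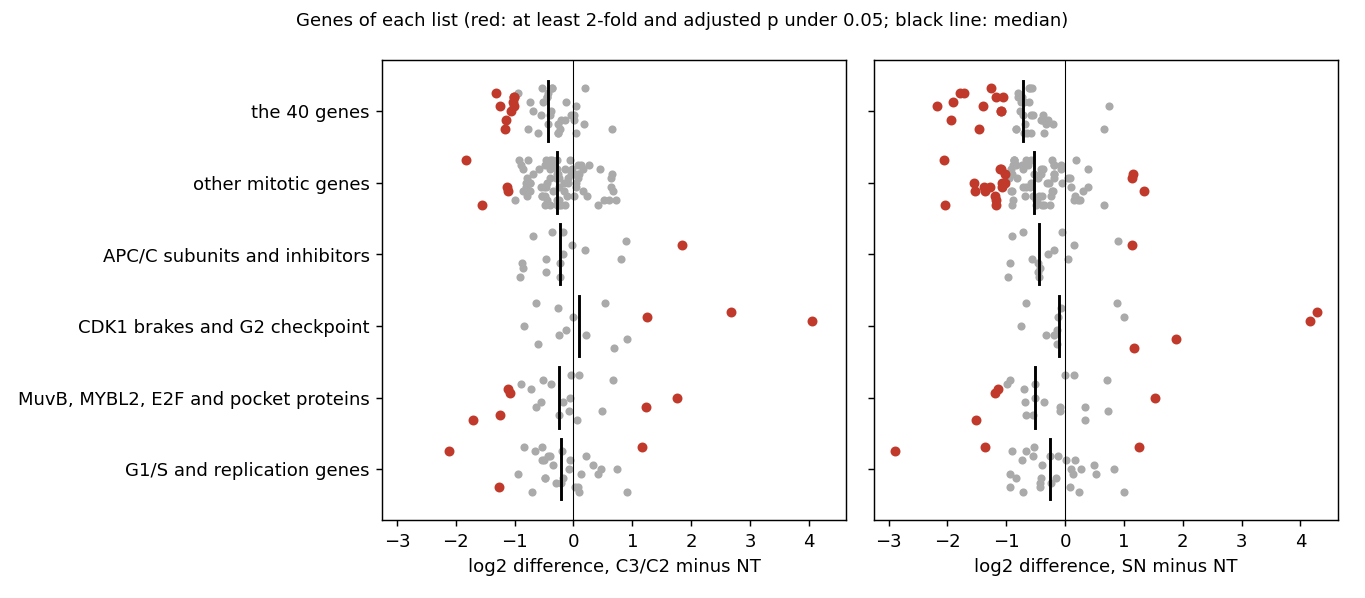
Log2 difference from NT (horizontal axis) with C3/C2 (left) and SN (right) for each gene of the 40 and of 5 lists from the same machinery (vertical axis), with genes that changed at least 2-fold at an adjusted p under 0.05 in red and the median as a black line. The median of the 40 genes (-0.43 and -0.71) lies left of those of the lists, and CDKN1A and GADD45B stand at the far right.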

How the data were processed

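Gene expression was measured in HT29 cells on 24 arrays, 4 for each of 6 groups given by the sample titles. Cy3-labelled RNA was hybridised by the authors to Agilent arrays of the human genome, and spots were read with Feature Extraction 10.7.3.1. The deposited intensity of a spot is, per the file headers, free of background and spatial trend and not normalized between arrays. The raw mean and background intensities were used for an alternative only. The authors also deposited a table in which, as checked, these intensities are divided by the array median (largest relative difference 5e-07), and its 24 columns of significance flags were not used.

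Control spots and outlier spots (190 to 315 per array) were left out and no spot was saturated. Spots of a probe were averaged as log2 values, the 75th percentile of the array was subtracted, and probes were kept that stood well above background on every array of 1 group or more. The probe with the highest mean stood for the gene. Group means were fitted with limma 3.58.1 in R 4.3.3 to the 24 arrays together (18 residual degrees of freedom), with Benjamini-Hochberg adjustment of p over the 20688 genes tested. The fit was tested on simulated data. The threshold was a fold of 2 and an adjusted p under 0.05, after the fold and p that the authors name. The SE of a log2 difference had a median of 0.108, with the 4 arrays of a group taken as independent. A two-sided exact permutation test of 4 arrays against 4 cannot go below p = 0.0286. Probes are placed by the coordinates in the files (hg19). Of the 50 probes, 49 have an accession in the RefSeq table, each with the same symbol. Promoters are from RefSeq (GRCh38.p14), and 7 of the 40 genes (FOXM1, BUB3, UBE2C, TTK, TPX2, PBK and AURKA) have no entry. Figures were drawn with matplotlib 3.10.9.

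The 40 genes and all gene lists were chosen with earlier results of these data known. Values on every array were given for the 3 genes with the largest fall and the 2 with the largest rise per treatment among those called with no overlap with NT (where none was called, the one with the lowest adjusted p in that direction), and for CCNB1, CDK1, PLK1 and MKI67. From each list up to 4 genes with the largest change were named. Alternatives covered the scaling, the background, the filter, the probe of a gene, the outlier spots, the fold, the arrays in the fit, the replicate block, the slide and each array left out.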

Additional observations from a re-analysis of the deposited data

Results flagged for a closer look

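In 3 of the 84 sets of 4 arrays examined (13 genes and the median of the 40, in 6 groups), 1 array lay apart from the others of its group by the Dixon ratio, where chance gives about 1 in 20. CDC25B was 3.025 on C3/C2 replicate 2, with the other C3/C2 arrays at 3.111 to 3.128, and 3.367 on TRAIL+C3/C2 replicate 1, with the others at 3.348 to 3.351. CCNB1 was 3.7 on TRAIL+SN replicate 3, with the others at 3.616 to 3.628. Each of these gaps is small beside the difference between the treatments with SN and NT for the same gene.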

How the results depend on the processing

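Scaling moved the level of all genes, and the 40 genes with it. Relative to the array median, the medians of the 40 genes were -0.734 for C3/C2, -0.711 for TRAIL+C3/C2, -0.83 for TRAIL+SN, -0.148 for SN against C3/C2, -0.217 for TRAIL+SN against TRAIL+C3/C2 and -1.013 for SN against TRAIL, 11 genes fell 2-fold with TRAIL+C3/C2 and 0 differed 2-fold between SN and C3/C2. Relative to spike-in probes, they were -0.224 for TRAIL, -1.078 for TRAIL+C3/C2, -1.162 for TRAIL+SN, -0.071 for SN against C3/C2, -0.182 for TRAIL+SN against TRAIL+C3/C2, -0.443 for SN against TRAIL, and -0.25 and -0.324 for the departures from the sum with C3/C2 and SN, and the 2-fold falls were 23 for TRAIL+C3/C2, 26 for TRAIL+SN, 0 for SN against C3/C2 and 7 for SN against TRAIL, with 1 rise. For TRAIL and for the departure with C3/C2 this turned the sign. The median of all genes moved likewise, from 0.10 to -0.61 for TRAIL+C3/C2, and a single constant per array cannot move the distance between both medians, which for C3/C2 was -0.51, and -0.415 after quantile normalization. With normexp background 5 genes fell 2-fold with C3/C2, where 3.34% of all genes did. Without a minimum fold, genes lower and higher were 26 and 1 for C3/C2, 37 and 2 for SN, 0 and 3 for TRAIL, 34 and 2 for TRAIL+SN, 27 and 4 for TRAIL+C3/C2, 20 and 1 for SN against C3/C2, 21 and 1 for TRAIL+SN against TRAIL+C3/C2, 35 and 2 for SN against TRAIL, and 1 and 0 for the departure with SN. With each array left out, 2-fold falls numbered 4 to 10 for C3/C2, 5 to 8 for TRAIL+C3/C2 (with 0 to 1 rises) and 1 to 2 for TRAIL+SN against TRAIL+C3/C2. Of 60 pairs of arrays with the same number in different groups, 57 deviated together with r over 0.1, with a median of 0.2 and a lowest value of 0.0616. Of 24 arrays 21 were closest to their own number. Arrays of the same number thus tended to move together, a hint from the data only. The sources do not say what the numbers stand for, so the main fit left them out, and its SE include the shift between numbers. With the replicate block the 2-fold falls were 9 for C3/C2, 12 for SN, 11 for TRAIL+SN and 5 for TRAIL+C3/C2, the same numbers as without it. Blocking by pairs of numbers (1 and 2, 3 and 4), chosen after seeing the data, also left them there. With that block the median SE for C3/C2 against NT was 0.0865, beside 0.108 without it.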
